A study of Mus musculus with 36 samples.

Results

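The 36 genes described here comprise 17 enzymes of glycolysis and lactate formation (hexokinase to lactate dehydrogenase), together with transporters, regulators and well-known targets of the hypoxia-inducible factors. They were chosen by name, with earlier results of these data known, and no measured value enters the rule. All 36 were found among the 51734 gene symbols of the count table, and all 36 were among the 20511 genes with enough counts to be tested. RNA of the mouse embryonic stem cell line E14 (ESC), and of neural precursors (NPC) made from it with retinoic acid (RA), was sequenced in 6 groups of 3 libraries. The 3 genotypes were wild type (WT), dCD, in which the histone methyltransferases MLL3 and MLL4 (genes Kmt2c and Kmt2d) are catalytically dead, and MLL2dTAG, in which MLL2 (gene Kmt2b) carries a degron through which the compound dTAG-13 directs it to degradation. Every library, WT included, is labelled as treated with dTAG-13 at 2 µM, so the compound is shared by controls and edited lines. The NPC groups are labelled with RA as well, with dTAG-13 from day 1 and harvest on day 4, and the time of exposure of the ESC is not given in the sources used here. Each genotype is a cell line of its own, so the edit and the line cannot be told apart, and whether the 3 libraries of a group came from separate cultures is not stated, so that p-values measure only the spread between these libraries. The question put to these genes was how their mRNA changed from ESC to NPC and how it differed in the edited lines at each stage.

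Glycolysis turns glucose into pyruvate. Glucose enters through carriers of the Slc2a family, is phosphorylated by hexokinases, is split and oxidised by a series of enzymes, and leaves as lactate through monocarboxylate carriers of the Slc16a family when lactate dehydrogenase reduces the pyruvate. Pyruvate dehydrogenase kinases (Pdk genes) inhibit the mitochondrial enzyme that turns pyruvate into acetyl-CoA, and the Pfkfb enzymes set the amount of the activator of phosphofructokinase. The hypoxia-inducible factors, formed by Hif1a or Epas1 with Arnt, are marked for destruction by prolyl hydroxylases when oxygen is present, and when stable they bind the core letters ACGTG or GCGTG near many of these genes. Embryonic stem cells in culture are known for a high rate of glycolysis, which falls as they differentiate.

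The promoters of several members carry the core letters of a hypoxia response element. The 250 bases before each start site were taken from the RefSeq promoter table (build GRCm38.p6), which held 49 such windows for 34 of the 36 members. ACGTG was searched on both strands, so that CACGT counts too and the overlapping pair in CACGTG counts as 1 site. GCGTG was not searched. Of the members' windows 24 (49.0%) held the letters, against 16.6% of all 32851 windows of the table and 20.2% of the 16482 windows of genes tested. By gene, 21 of 34 members (61.8%) had such a window, against 23.5% of the 12978 tested genes with a window. Several members are textbook targets of the hypoxia-inducible factors, so their share is a description and not a test. The windows printed here are of genes the later values turn on. Ankrd37 had the deepest fall in the MLL2dTAG line. Ldha, Pgk1 and Slc16a3 had 2 or 3 sites in the window printed, and a second window of Ldha held no match. They were among the 25 of 36 members that were lower in NPC of both edited lines. So were Hk2, also with 2 sites, and Gpi1, Tpi1 and Gapdh, with no ACGTG in their windows. P4ha2 was higher in MLL2dTAG NPC. Pfkp, the most lowered member from ESC to NPC, has no ACGTG on either strand in its window. The Pfkp window does hold GCGTG, the other core, which was not searched. Each window is written 5′ to 3′ on the strand of its gene, with the matched letters in capitals.
Ankrd37 (chr8:45999851-46000100, minus strand): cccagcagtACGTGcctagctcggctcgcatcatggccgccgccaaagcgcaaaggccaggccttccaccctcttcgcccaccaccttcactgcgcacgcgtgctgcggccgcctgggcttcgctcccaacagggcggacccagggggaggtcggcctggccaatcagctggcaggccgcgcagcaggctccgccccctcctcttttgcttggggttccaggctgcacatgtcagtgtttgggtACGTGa
Ldha (chr7:46845554-46845803, plus strand): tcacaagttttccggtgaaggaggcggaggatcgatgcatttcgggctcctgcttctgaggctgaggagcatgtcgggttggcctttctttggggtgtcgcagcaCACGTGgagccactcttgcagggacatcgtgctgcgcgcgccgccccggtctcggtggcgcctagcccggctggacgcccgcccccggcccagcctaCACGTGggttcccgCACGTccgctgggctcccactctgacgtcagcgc
Pgk1 (chrX:106186850-106187099, plus strand): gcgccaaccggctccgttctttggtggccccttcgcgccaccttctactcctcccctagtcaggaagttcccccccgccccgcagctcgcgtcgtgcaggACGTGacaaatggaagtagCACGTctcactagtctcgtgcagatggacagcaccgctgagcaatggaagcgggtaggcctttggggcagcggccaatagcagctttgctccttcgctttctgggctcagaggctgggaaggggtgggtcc
Slc16a3 (chr11:120948817-120949066, plus strand): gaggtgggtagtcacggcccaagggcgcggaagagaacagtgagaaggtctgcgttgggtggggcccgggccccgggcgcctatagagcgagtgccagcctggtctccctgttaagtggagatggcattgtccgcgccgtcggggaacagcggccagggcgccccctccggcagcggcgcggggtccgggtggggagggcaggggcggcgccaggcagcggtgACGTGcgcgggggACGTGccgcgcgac
P4ha2 (chr11:54100674-54100923, plus strand): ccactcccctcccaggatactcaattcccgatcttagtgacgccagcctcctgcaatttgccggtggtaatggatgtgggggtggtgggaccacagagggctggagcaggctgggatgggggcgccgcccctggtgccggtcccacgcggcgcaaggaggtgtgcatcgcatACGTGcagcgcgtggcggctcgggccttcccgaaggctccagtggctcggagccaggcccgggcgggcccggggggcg
Pfkp (chr13:6648772-6649021, minus strand): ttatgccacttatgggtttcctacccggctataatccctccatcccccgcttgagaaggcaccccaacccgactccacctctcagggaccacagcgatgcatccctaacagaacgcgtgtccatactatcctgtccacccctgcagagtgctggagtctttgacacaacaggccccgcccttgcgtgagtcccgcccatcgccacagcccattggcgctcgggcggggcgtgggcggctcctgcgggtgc
In Ankrd37 the matches began 241 and 6 bases before the start, and in Slc16a3 27 and 14 bases before it. Among the 34 members with a window, the median log2 change in MLL2dTAG NPC against WT was −0.71 for the 21 with the letters and −1.06 for the 13 without, and in dCD NPC it was −0.45 and −0.33. In ESC the medians against WT were −0.33 with the letters and −0.45 without in MLL2dTAG, and −0.23 and −0.58 in dCD. The ranges of the members with and without the letters overlapped in each of these comparisons. A match is a run of letters and not a measured binding site, and these RNA libraries hold no measure of factor binding.

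Most of the 36 genes went down as WT ESC became NPC, and most stood lower still in NPC of both edited lines. In WT, 25 members were lower in NPC than in ESC, 8 were higher and 3 did not pass the threshold, by edgeR's quasi-likelihood test at an adjusted p under 0.05. Of the whole set tested, 79.5% passed the same threshold, 39.1% higher and 40.4% lower. The median log2 change was −0.76 for the members and −0.04 for all genes. Values of the 2 WT groups did not overlap for 33 members, against 79.7% of all genes tested. In bulk RNA, fewer cells of a type and less RNA per cell cannot be told apart, and this holds for every level given here.

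In ESC the dCD line had 26 members lower than WT, none higher and 10 not called, where 22.6% of all genes were called lower and 25.7% higher. The median log2 change of the members was −0.27, with 0.02 for all genes. In MLL2dTAG ESC 29 members were lower, 3 higher (Pdk1, Pfkfb4 and Vegfa) and 4 not called, against 28.2% of all genes lower and 28.7% higher. The median was −0.35 for the members. Most of these changes were small: at least a 2-fold fall was reached by 3 members in dCD ESC and by 4 in MLL2dTAG ESC, against 3.86% and 10.4% of all genes. Marker genes of cell types differed in the same libraries. All 8 mesenchymal markers were higher in both edited ESC lines, with a sum of 465 to 579 CPM in WT, 742 to 830 in dCD and 842 to 898 in MLL2dTAG, and the sum of 6 endoderm markers was 71.1 to 78.9, 31.4 to 35.6 and 90.9 to 96.7 CPM. By gene, 3 endoderm markers were lower and 0 higher in dCD ESC, and 2 were higher and 1 lower in MLL2dTAG ESC. Of 8 neural progenitor markers 6 were higher and 0 lower in dCD ESC, with 3 and 3 in MLL2dTAG ESC. Of 8 pluripotency markers 2 were higher and 4 lower in dCD ESC, with 6 and 2 in MLL2dTAG ESC. The part of these markers in the changes of the members in ESC was not tested.

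In NPC, dCD had 29 members lower and 3 higher (Hk1, Eno2 and Pfkfb3), against 26.8% of all genes lower and 26.7% higher, with a median of −0.45 where all genes had −0.02. MLL2dTAG NPC had 31 members lower and 2 higher (P4ha2 and Ndrg1), against 28.4% of all genes lower and 33.3% higher, with a median of −0.72 where all genes had 0.03. At least a 2-fold fall in MLL2dTAG NPC was reached by 16 of the 36 members, against 11.9% of all genes. The fall or rise against WT differed between ESC and NPC for 26 members in dCD (7 higher and 19 lower in the interaction, against 20% and 22.9% of all genes) and for 33 in MLL2dTAG (9 and 24, against 26.4% and 22.6%). The 2 comparisons in NPC share their WT libraries. In both edited lines 25 members were lower and none was higher, against 15.3% and 18% of all genes (Ndrg1 and P4ha2 went down in dCD and up in MLL2dTAG, and Hk1, Eno2 and Pfkfb3 the other way). The map of all members by library shows the 3 libraries of a group close together in nearly every row.

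**Figure D1:**
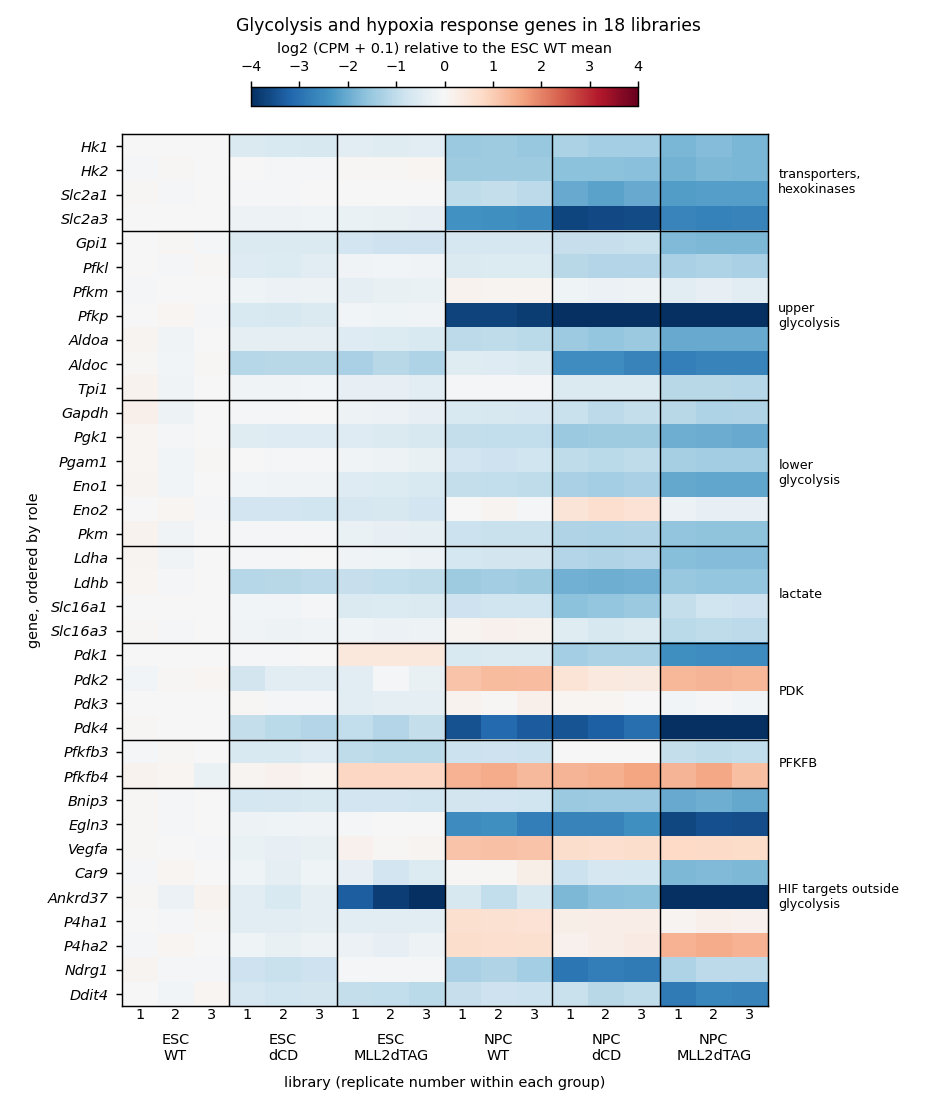
Level of each of the 36 genes (rows, by role) in each of the 18 libraries (columns, 3 per group), as log2 (CPM + 0.1) relative to the ESC WT mean, with blue lower and red higher and the colours ending at −4 and 4. The NPC MLL2dTAG columns are blue in most rows, with Pfkp, Pdk4 and Ankrd37 deepest and P4ha2, Pfkfb4, Pdk2 and Vegfa red.

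**Figure D2:**
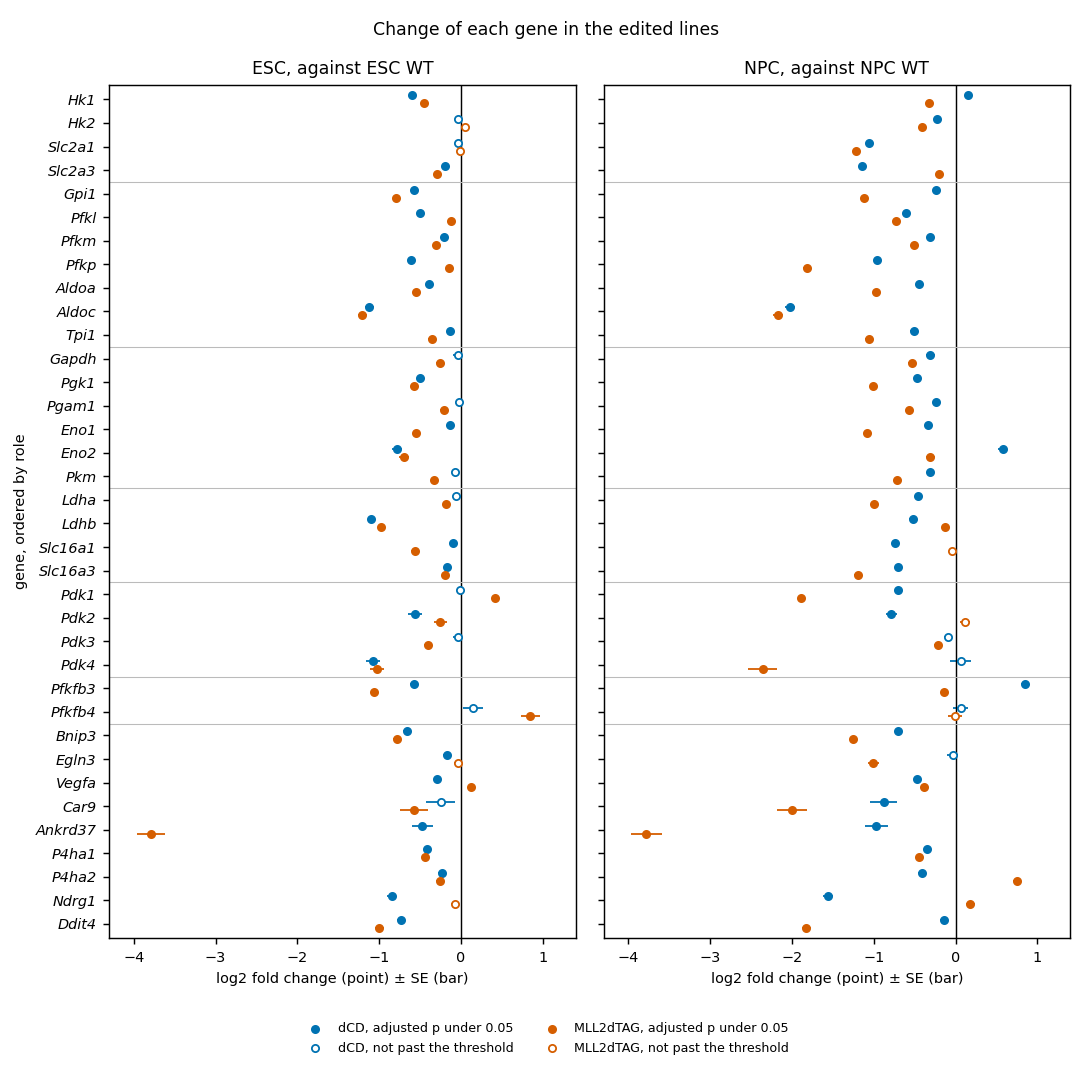
Log2 fold change with its standard error for each gene against WT of the same stage, in dCD (blue) and MLL2dTAG (orange), ESC on the left and NPC on the right, with filled points past the threshold of an adjusted p of 0.05. Of the 36 members 26 (dCD) and 29 (MLL2dTAG) lie to the left of 0 and are filled in ESC, and 29 and 31 in NPC.

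Across the 18 libraries the total was 19.4 to 46.0 M counts, and the 36 members took 0.540% to 1.80% of them. Levels are given as CPM, the count scaled to a common library total, in which 3 counts correspond to 0.0652 to 0.154 CPM, and the coefficient of variation between replicates fitted by edgeR was 4.01%. The 8 pluripotency markers summed to 3938 to 4374 CPM in ESC WT and to 33.4 to 34.7 in NPC WT, and the 8 neural progenitor markers to 107 to 121 and 463 to 466. The NPC groups did not have the same markers. The pluripotency sum was 49.3 to 50.5 CPM in dCD NPC and 211 to 214 in MLL2dTAG NPC. The neural progenitor sum was 556 to 599 CPM in dCD NPC and 486 to 494 in MLL2dTAG NPC. By gene, 5 of these 8 were higher and 1 lower than WT in dCD, and 3 higher and 2 lower in MLL2dTAG. The sum of 6 endoderm markers was 266 to 274 CPM in WT, 214 to 217 in dCD and 674 to 694 in MLL2dTAG. The sum of 8 mesenchymal markers was 703 to 722, 905 to 992 and 1061 to 1072 CPM in the same 3 groups. By gene, 7 of these 8 were higher and 0 lower than WT in dCD. In MLL2dTAG 5 of them were higher and 3 lower, 2 of the latter at least 2-fold. The sum of 6 endothelial and blood markers was 60.2 to 62.9 CPM in WT, 43.2 to 46.9 in dCD and 213 to 219 in MLL2dTAG. Hba-a1, Ptprc and Hbb-bt were at 0 in all 3 groups. The part of these marker differences in the changes of the members in NPC was not tested.

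Levels can be compared between genes only per length, and were divided here by the longest GENCODE M21 transcript, which understates a gene whose main transcript is shorter. On the scale of CPM per kilobase, Aldoa was the most abundant member in ESC WT at 1113, followed by Pkm at 1013 and Ldha at 799. In NPC WT the order was Pkm at 548, Aldoa at 538, Ldha at 484 and Tpi1 at 471. Gapdh, divided by a longest transcript of 3289 bases, stood at 364 in ESC WT and 232 in NPC WT. Its place in these orders depends on that length. At the low end in ESC WT stood Car9 at 1.65 and Pfkfb4 at 1.60.

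The glucose carriers and hexokinases all fell from ESC to NPC. Slc2a3 (GLUT3, the high-affinity carrier of neurons and embryonic cells) had, as ESC, 1956, 1958 and 1907 CPM in WT, 1684, 1685 and 1717 in dCD, and 1609.9, 1589 and 1551 in MLL2dTAG. The NPC libraries gave 358, 351 and 338 CPM in WT, 153, 158 and 163 in dCD, and 310.5, 301 and 303 in MLL2dTAG. Every NPC library was far below every ESC library, and within NPC the dCD libraries were the lowest. The log2 change was −2.47 (SE 0.03) from ESC to NPC in WT. Against WT of the same stage it was −1.15 (SE 0.03) in dCD NPC, with an edgeR adjusted p of 1.2e-26, and −0.20 (SE 0.03) in MLL2dTAG NPC, and in ESC it was −0.19 (SE 0.03) and −0.29 (SE 0.03).

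Slc2a1 (GLUT1, the carrier of most dividing cells) had, as ESC, 742, 694 and 726 CPM in WT, 704, 692 and 715 in dCD, and 726, 712 and 706 in MLL2dTAG. In NPC it stood at 358, 374 and 351 CPM in WT, 177, 165 and 179 in dCD, and 153, 158 and 156 in MLL2dTAG. The 3 ESC groups overlapped, while the libraries of both edited lines in NPC lay below all NPC WT libraries. The log2 change was −0.997 (SE 0.03) from ESC to NPC in WT, −1.06 (SE 0.03) in dCD NPC and −1.21 (SE 0.03) in MLL2dTAG NPC, while in ESC the 2 values, −0.03 (SE 0.03) and −0.01 (SE 0.03), did not pass the threshold. With GC content and length offset, the MLL2dTAG value in ESC was called at −0.07. The lines also differed from each other in NPC: MLL2dTAG over dCD was 0.95 (SE 0.03) for Slc2a3 and −0.16 (SE 0.03) for Slc2a1.

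Hk1, the hexokinase of most tissues, had, as ESC, 166, 163 and 165 CPM in WT, 111, 109 and 106 in dCD, and 121, 118 and 123 in MLL2dTAG. As NPC it had 58.4, 61.4 and 57.5 CPM in WT, 68.4, 64.6 and 64.03 in dCD, and 46.2, 49.5 and 46.03 in MLL2dTAG. In ESC both edited lines lay below WT, and in NPC dCD lay above WT and MLL2dTAG below. The changes in ESC were −0.60 (SE 0.04) in dCD and −0.45 (SE 0.04) in MLL2dTAG. In NPC they were 0.15 (SE 0.04) and −0.32 (SE 0.04). Hk2, the hexokinase induced in proliferating cells, was at 477 ± 15.4 CPM in ESC WT and 178 ± 0.411 in NPC WT (SD, n = 3), and its log2 change in NPC was −0.23 (SE 0.03) in dCD and −0.42 (SE 0.03) in MLL2dTAG. The stage changes in WT were nearly the same size for Hk1 (−1.48, SE 0.04) and Hk2 (−1.42, SE 0.03).

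The 13 enzymes from Gpi1 to Pkm carried most of the RNA of the group, and their sum stood lower in each step from WT to dCD to MLL2dTAG at both stages. As ESC, the WT line had a sum of 10606 ± 682 CPM, dCD one of 8786 ± 67.96 and MLL2dTAG one of 8064 ± 236 (SD, n = 3). In NPC it was 5786 ± 68.01 CPM in WT, 4445 ± 79.5 in dCD and 3201 ± 38.98 in MLL2dTAG. The ranges of the 6 groups did not overlap. The step between the edited lines in ESC was not shared by all enzymes. There 8 of the 13 were lower in MLL2dTAG than in dCD and 2 (Pfkl and Pfkp) were higher. Of all genes 23.7% were lower and 23.4% higher. The 7 upper enzymes, Gpi1 to Tpi1, overlapped there, with sums of 3950 to 4025 CPM in dCD and 3967 to 4127 in MLL2dTAG. In NPC 12 of the 13 were lower in MLL2dTAG than in dCD, against 24.3% of all genes. By gene, MLL2dTAG was lower than WT for all 13 enzymes at both stages, against 28.2% of all genes in ESC and 28.4% in NPC. In dCD 10 of the 13 were lower in ESC, against 22.6% of all genes. In dCD NPC 12 were lower and Eno2 was higher, where 26.8% of all genes were lower and 26.7% higher. At least a 2-fold fall was reached in MLL2dTAG NPC by Gpi1, Pfkp, Aldoc, Tpi1, Pgk1 and Eno1, against 11.9% of all genes.

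Of the 3 phosphofructokinase genes, which encode the subunits of the main control point of glycolysis, Pfkp changed most of all members between stages. The ESC libraries gave 1084, 1172 and 1065 CPM in WT, 728, 703 and 738 in dCD, and 1024, 979 and 998 in MLL2dTAG. Among NPC it read 84.6, 85.3 and 78.9 CPM in WT, 42.2, 42.8 and 43.4 in dCD, and 22.9, 23.8 and 23.8 in MLL2dTAG. The highest NPC library was far below the lowest ESC library, and in NPC the 3 groups were well apart, with MLL2dTAG lowest. From ESC to NPC in WT it was 13.3-fold lower, a log2 change of −3.74 (SE 0.04) with an edgeR adjusted p of 2.8e-40. The log2 change was −0.95 (SE 0.04) in dCD NPC and −1.82 (SE 0.04) in MLL2dTAG NPC. In ESC it was −0.62 (SE 0.03) in dCD and −0.15 (SE 0.03) in MLL2dTAG. Pfkl, the liver-type subunit, fell by a smaller amount between stages (−0.56, SE 0.03), and Pfkm, the muscle-type subunit, had 0.11 (SE 0.04), a call lost under upper-quartile scaling. In NPC Pfkl was lower in dCD (−0.61, SE 0.03) and in MLL2dTAG (−0.73, SE 0.03), and Pfkm was at −0.32 (SE 0.04) and −0.51 (SE 0.04). Exons of Pfkp overlap those of Pitrm1 on the opposite strand over 748 bases, and whether the counting used the strand is not stated. Pitrm1 had log2 changes of −0.27 (SE 0.03) between stages and 0.01 (SE 0.03) in MLL2dTAG NPC.

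Aldoc, the aldolase of brain, had the largest fall of the enzymes in both edited lines. As ESC it had 79.6, 70.9 and 79.2 CPM in WT, 34.6, 35.2 and 35.7 in dCD, and 31.3, 35.3 and 32.8 in MLL2dTAG. The values in NPC were 54.9, 53.1 and 51.6 CPM in WT, 13.6, 13.7 and 12.05 in dCD, and 11.4, 11.9 and 11.97 in MLL2dTAG. At each stage all libraries of both edited lines lay below all WT libraries. The log2 change was −1.12 (SE 0.06) in dCD ESC, −1.20 (SE 0.06) in MLL2dTAG ESC, −2.02 (SE 0.06) in dCD NPC and −2.18 (SE 0.06) in MLL2dTAG NPC. The last is a 4.52-fold fall, with an edgeR adjusted p of 3.9e-26. Its stage change in WT was −0.52 (SE 0.05). Aldoa, the far more abundant aldolase, had −1.05 (SE 0.04) between stages and −0.45 (SE 0.04) and −0.97 (SE 0.04) in dCD and MLL2dTAG NPC.

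Gpi1, the isomerase of glucose phosphate, had, as ESC, 1043, 1066 and 978 CPM in WT, 690.0, 694 and 685 in dCD, and 611, 577 and 584 in MLL2dTAG. Its NPC values were 647, 649.6 and 642 CPM in WT, 545, 547 and 549 in dCD, and 302, 296 and 296 in MLL2dTAG. MLL2dTAG was lowest at each stage with no overlap between any groups of a stage. The changes were −0.58 (SE 0.03) in dCD ESC and −0.80 (SE 0.03) in MLL2dTAG ESC, and −0.24 (SE 0.03) and −1.12 (SE 0.03) in NPC. Tpi1, the triose phosphate isomerase, did not pass the threshold between stages (−0.06, SE 0.04). Its direction there was not stable: it was called lower under upper-quartile scaling (−0.15) and without ESC WT replicate 2 (−0.13), and higher when GC content and length were offset (0.15). It was lower in NPC of dCD (−0.51, SE 0.04) and MLL2dTAG (−1.06, SE 0.04). In dCD ESC its value was −0.13 (SE 0.04), a call lost without ESC WT replicate 1 (−0.05).

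In the lower part of the pathway, from Gapdh to Pkm, Eno1 (the common enolase) had the largest called fall between stages in WT. In ESC it stood at 965, 836 and 890.1 CPM in WT, 837, 806 and 813 in dCD, and 631, 609 and 593 in MLL2dTAG. The NPC libraries gave 459.6, 456 and 442 CPM in WT, 367, 346 and 365 in dCD, and 216, 213 and 211 in MLL2dTAG. The libraries of MLL2dTAG lay below WT and dCD at both stages, and those of dCD and WT overlapped in ESC. The log2 change was −0.99 (SE 0.04) from ESC to NPC in WT, −0.55 (SE 0.04) in MLL2dTAG ESC, −0.33 (SE 0.04) in dCD NPC and −1.08 (SE 0.04) in MLL2dTAG NPC. The call in dCD ESC (−0.13, SE 0.04) was lost without ESC WT replicate 1 (−0.08). Eno1 has a near-identical copy, Eno1b, with 48667 counts over the 18 libraries, so the assignment of reads between the copies is uncertain.

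Eno2, the enolase of neurons, was the exception among the enzymes. Its ESC values were 41.5, 43.1 and 38.8 CPM in WT, 24.1, 23.97 and 23.8 in dCD, and 25.7, 26.6 and 24.1 in MLL2dTAG. In NPC it stood at 40.4, 44.5 and 39.8 CPM in WT, 58.7, 64.98 and 62.1 in dCD, and 34.95, 33.1 and 32.8 in MLL2dTAG. In ESC the libraries of both edited lines lay below all WT libraries, whereas in NPC the dCD libraries were the highest and those of MLL2dTAG the lowest. The stage change in WT was 0.02 (SE 0.06), which did not pass the threshold. The changes against WT were −0.78 (SE 0.06) and −0.69 (SE 0.06) in ESC of dCD and MLL2dTAG. In NPC they were 0.57 (SE 0.05) and −0.31 (SE 0.06). The 6 neuron markers summed to 256 to 261 CPM in NPC WT, 390 to 421 in dCD and 249 to 264 in MLL2dTAG, and their part in the value of Eno2 was not tested.

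The other 4 enzymes of this stretch moved together in NPC. Pgk1, the first to make ATP, had −0.47 (SE 0.04) in dCD NPC and −1.01 (SE 0.04) in MLL2dTAG NPC. Pkm, the pyruvate kinase, had −0.31 (SE 0.04) and −0.71 (SE 0.04). Gapdh had −0.31 (SE 0.05) and −0.53 (SE 0.05), and Pgam1 had −0.24 (SE 0.04) and −0.57 (SE 0.05). For each of the 4 the value was lower in MLL2dTAG than in dCD in a direct test, with log2 differences from −0.22 (Gapdh) to −0.54 (Pgk1). In dCD ESC only Pgk1 of these 4 was called (−0.50, SE 0.04). Gapdh and Pkm, at −0.04 (SE 0.05) and −0.08 (SE 0.04), were called there without ESC WT replicate 2 (−0.13 and −0.14).

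The 2 lactate dehydrogenases behaved differently in the edited lines. Ldhb, the form that favours lactate oxidation, had, as ESC, 464, 409 and 432 CPM in WT, 198, 201 and 209 in dCD, and 229, 220.2 and 214 in MLL2dTAG. As NPC it had 161, 166 and 164 CPM in WT, 115, 112 and 115 in dCD, and 152, 148 and 150.0 in MLL2dTAG. Both edited lines lay below WT at both stages, with dCD the lowest, and the MLL2dTAG and WT libraries of NPC were close. The changes were −1.10 (SE 0.04) and −0.98 (SE 0.04) in ESC of dCD and MLL2dTAG. In NPC they were −0.53 (SE 0.04) and −0.13 (SE 0.04), and the stage change in WT was −1.41 (SE 0.04). Ldha, the form that favours lactate formation, was little changed in ESC (−0.06, SE 0.04 in dCD, not called, and −0.18, SE 0.04 in MLL2dTAG). The dCD value was called without ESC WT replicate 2 (−0.12) and when GC content and length were offset (−0.10). In NPC it was lower in dCD (−0.46, SE 0.04) and more so in MLL2dTAG (−1.001, SE 0.04). Its level was 878 ± 11.4 CPM in NPC WT, 639 ± 7.28 in dCD and 439 ± 3.83 in MLL2dTAG (SD, n = 3).

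The lactate carriers divided the lines. Slc16a1 (MCT1) had, as ESC, 202, 201 and 199 CPM in WT, 184, 187 and 192 in dCD, and 134, 138 and 135 in MLL2dTAG. Among NPC it read 112, 115 and 115 CPM in WT, 64.4, 68.3 and 71.7 in dCD, and 104, 116 and 113 in MLL2dTAG. In ESC the MLL2dTAG libraries were the lowest, and in NPC the dCD libraries were the lowest while those of MLL2dTAG and WT overlapped. The changes were −0.57 (SE 0.04) in MLL2dTAG ESC and −0.74 (SE 0.04) in dCD NPC. In MLL2dTAG NPC the value was −0.04 (SE 0.04) and not called, but it was called under upper-quartile scaling (−0.13), with library totals (−0.12) and with only the groups compared (−0.09). The small value in dCD ESC (−0.10, SE 0.04) lost its call under 8 of the alternatives run, among them those without ESC WT replicate 1 or 3 or ESC dCD replicate 1 or 2.

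Slc16a3 (MCT4, the carrier that exports lactate from glycolytic cells) had, as ESC, 201, 184 and 197 CPM in WT, 176, 168 and 175 in dCD, and 174, 167 and 169 in MLL2dTAG. The values in NPC were 212, 219.8 and 215 CPM in WT, 140.3, 126 and 130.5 in dCD, and 91.3, 96.95 and 93.6 in MLL2dTAG. It was lower in both edited lines in NPC, and lowest in MLL2dTAG. The changes were −0.71 (SE 0.04) in dCD NPC and −1.20 (SE 0.04) in MLL2dTAG NPC. In ESC they were −0.17 (SE 0.04) and −0.19 (SE 0.04). Its stage change in WT (0.15, SE 0.04) lost its call under upper-quartile scaling and when GC content and length were offset.

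**Figure D3:**
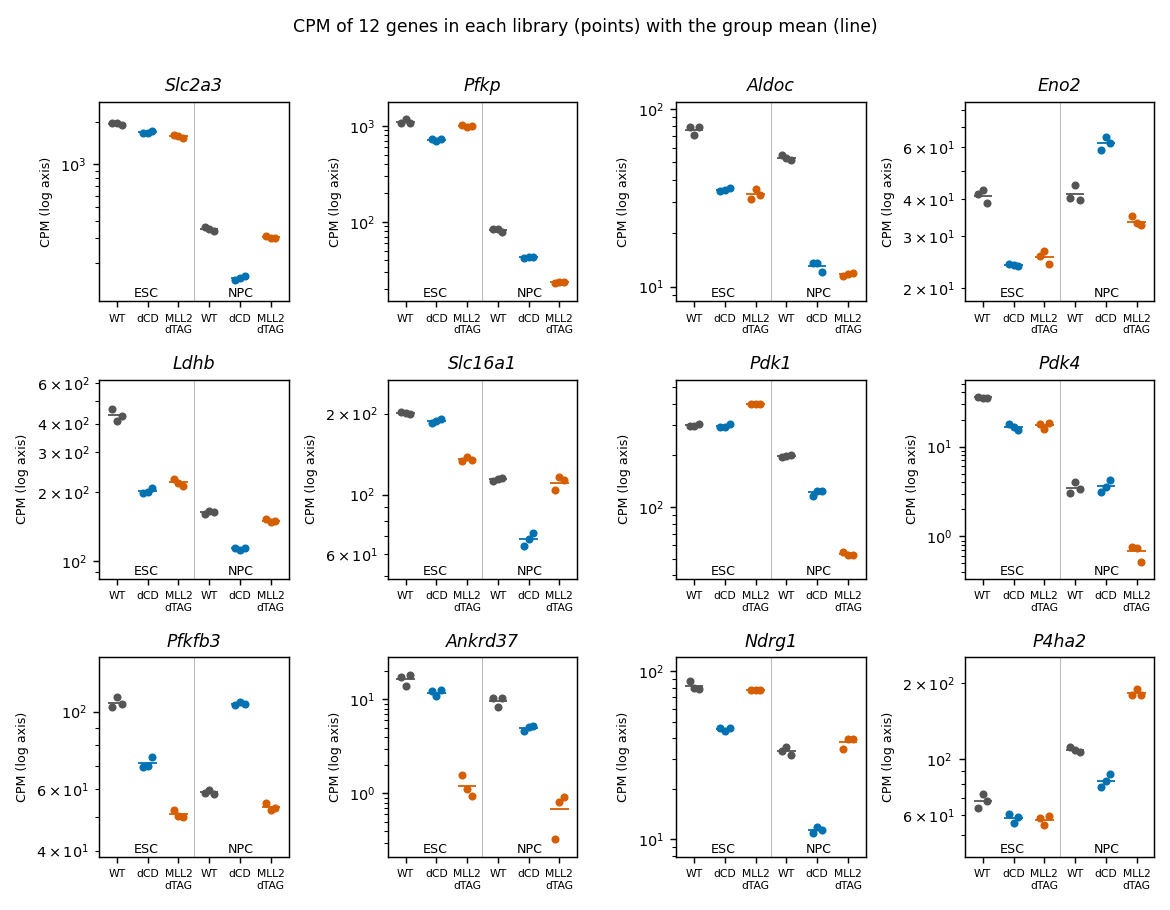
CPM (log axis) of 12 genes in each library (points, 3 per group) with the group mean (line), WT in grey, dCD in blue and MLL2dTAG in orange, ESC left and NPC right in each panel. Pfkp is far lower in all NPC libraries, Ankrd37 is lowest in both MLL2dTAG groups, and Ndrg1 and Slc2a3 are lowest in NPC dCD.

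The pyruvate dehydrogenase kinases did not move as a group. Pdk1, the kinase known as a hypoxia target, had, as ESC, 295, 298 and 305 CPM in WT, 292, 291 and 305 in dCD, and 399, 399 and 398 in MLL2dTAG. Its NPC values were 194, 199 and 200.4 CPM in WT, 116, 124 and 124 in dCD, and 54.8, 52.8 and 52.8 in MLL2dTAG. MLL2dTAG was the highest group in ESC and the lowest in NPC, with no overlap with WT at either stage. The log2 change in MLL2dTAG was 0.41 (SE 0.03) in ESC and −1.89 (SE 0.04) in NPC. The last is a 3.70-fold fall, with an edgeR adjusted p of 5e-31. In dCD it was −0.02 (SE 0.03) in ESC, not called, and −0.70 (SE 0.03) in NPC. A call higher in ESC and lower in NPC of MLL2dTAG was made for 4.72% of all genes and, among the members, for Pdk1 and Vegfa. The call of Vegfa in ESC was lost under 5 of the alternatives run, among them those without ESC WT replicate 3 or ESC MLL2dTAG replicate 1.

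Pdk4, the kinase induced by fasting, had, as ESC, 36.02, 35.04 and 34.6 CPM in WT, 18.04, 16.6 and 15.5 in dCD, and 17.8, 15.6 and 18.3 in MLL2dTAG. The NPC libraries gave 3.07, 3.99 and 3.41 CPM in WT, 3.10, 3.59 and 4.28 in dCD, and 0.771, 0.75 and 0.522 in MLL2dTAG. It was low in all NPC libraries, and in MLL2dTAG NPC it was under 1 CPM. The changes were −3.33 (SE 0.10) from ESC to NPC in WT, −1.08 (SE 0.09) and −1.03 (SE 0.09) in ESC of dCD and MLL2dTAG, and −2.36 (SE 0.18) in MLL2dTAG NPC. In dCD NPC it was 0.06 (SE 0.13) and not called.

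Pdk2, a widely expressed kinase, rose between stages. The ESC libraries gave 17.6, 19.4 and 19.8 CPM in WT, 11.2, 13.7 and 13.7 in dCD, and 14.2, 18.2 and 15.5 in MLL2dTAG. In NPC it stood at 42.2, 45.4 and 44.7 CPM in WT, 27.5, 24.99 and 24.3 in dCD, and 47.5, 48.6 and 47.5 in MLL2dTAG. All NPC libraries were above all ESC libraries, and the dCD libraries were the lowest in NPC. The stage change in WT was 1.21 (SE 0.07), and the change in dCD was −0.56 (SE 0.09) in ESC and −0.79 (SE 0.07) in NPC. In MLL2dTAG it was −0.25 (SE 0.08) in ESC, with overlapping libraries and a call lost without ESC MLL2dTAG replicate 1 (−0.18), and 0.12 (SE 0.06) in NPC, not called. Pdk3 had 0.13 (SE 0.05) between stages, −0.40 (SE 0.05) in MLL2dTAG ESC and −0.21 (SE 0.05) in MLL2dTAG NPC. Its stage call was lost under upper-quartile scaling (0.04) and without ESC WT replicate 2 (0.12) or NPC WT replicate 3 (0.09).

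Of the Pfkfb genes, Pfkfb3, whose enzyme strongly favours making the activator of phosphofructokinase, had, as ESC, 103, 109.9 and 105 CPM in WT, 69.2, 69.6 and 74.2 in dCD, and 52.4, 50.2 and 49.998 in MLL2dTAG. As NPC it had 58.5, 59.7 and 57.9 CPM in WT, 104, 106 and 105 in dCD, and 54.8, 52.4 and 53.1 in MLL2dTAG. In ESC both edited lines were below WT, and in NPC all dCD libraries were above all others. The changes were −0.58 (SE 0.04) and −1.06 (SE 0.04) in ESC of dCD and MLL2dTAG. In NPC they were 0.84 (SE 0.04) and −0.14 (SE 0.04), and the stage change in WT was −0.85 (SE 0.04). Its mean was 105 ± 1.04 CPM in dCD NPC and 106 ± 3.60 in ESC WT (SD, n = 3), a pair that was not tested.

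Pfkfb4, the less abundant of the pair per length, was highest in NPC. As ESC it had 6.17, 5.87 and 4.65 CPM in WT, 6.06, 6.29 and 5.89 in dCD, and 9.96, 9.87 and 9.92 in MLL2dTAG. Among NPC it read 14.6, 15.9 and 13.8 CPM in WT, 14.3, 15.2 and 16.7 in dCD, and 14.6, 16.4 and 13.04 in MLL2dTAG. The MLL2dTAG libraries were the highest in ESC and the 3 NPC groups overlapped. The changes were 0.85 (SE 0.11) in MLL2dTAG ESC and 1.42 (SE 0.11) from ESC to NPC in WT. In NPC neither line was called (0.06, SE 0.09 and −0.01, SE 0.09).

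**Figure D4:**
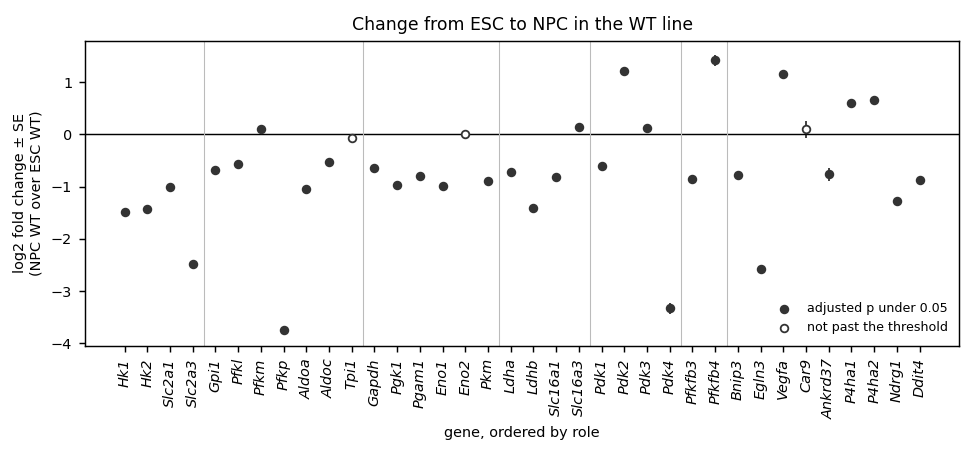
Log2 fold change with its standard error for each of the 36 genes, NPC WT over ESC WT, ordered by role, with filled points past the threshold of an adjusted p of 0.05. Of the 36 genes 25 lie below 0 and are filled, with Pfkp and Pdk4 lowest, and 8 lie above 0 and are filled, with Pfkfb4 and Pdk2 highest.

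Among the 9 targets of the hypoxia-inducible factors outside glycolysis, Ankrd37, a small ankyrin repeat protein, had the largest fall of all members. In ESC it stood at 17.2, 13.9 and 18.3 CPM in WT, 12.2, 10.8 and 12.5 in dCD, and 1.57, 1.12 and 0.939 in MLL2dTAG. The values in NPC were 10.5, 8.30 and 10.4 CPM in WT, 4.63, 5.07 and 5.16 in dCD, and 0.326, 0.817 and 0.913 in MLL2dTAG. Each of the 6 MLL2dTAG libraries was below every other library. Against WT it was 13.9-fold lower in MLL2dTAG ESC, a log2 change of −3.79 (SE 0.17) with an edgeR adjusted p of 8e-20. In MLL2dTAG NPC it was 13.7-fold lower, a log2 change of −3.78 (SE 0.19) with an edgeR adjusted p of 4.7e-19. In dCD it was −0.47 (SE 0.13) in ESC and −0.97 (SE 0.14) in NPC, so the direct difference between MLL2dTAG and dCD was −3.32 (SE 0.18) in ESC and −2.81 (SE 0.20) in NPC. The test of a difference between the stages in MLL2dTAG did not pass, with an interaction of 0.02 (SE 0.37) on the log2 scale. That SE, taken from the root of F, is unreliable for a change so near 0 at low counts.

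The exons of Ankrd37 overlap those of Ufsp2, a protease gene on the opposite strand, over 57 bases, and Ufsp2 was lower in the same libraries. Ufsp2 had −2.20 (SE 0.07) in MLL2dTAG ESC, from 52.7 ± 3.12 to 11.5 ± 0.833 CPM (SD, n = 3), and −1.24 (SE 0.07) in MLL2dTAG NPC. In dCD it had −0.28 (SE 0.07) in ESC and −0.28 (SE 0.06) in NPC. Ufsp2 is no member and was looked at because of the overlap. Lrp2bp, which overlaps Ankrd37 over 349 bases, was at or under 0.349 CPM on average in each group. What part of the counts of Ankrd37 came from the overlap was not tested.

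Ndrg1, a gene induced by hypoxia and differentiation, separated the lines. Its ESC values were 87.5, 79.2 and 78.8 CPM in WT, 45.9, 44.5 and 45.8 in dCD, and 77.96, 77.8 and 77.3 in MLL2dTAG. Its NPC values were 33.5, 35.6 and 31.7 CPM in WT, 10.9, 11.9 and 11.4 in dCD, and 34.7, 39.5 and 39.5 in MLL2dTAG. At both stages the dCD libraries were far below WT, and those of MLL2dTAG were near WT. The changes in dCD were −0.85 (SE 0.05) in ESC and −1.56 (SE 0.06) in NPC. In MLL2dTAG ESC the value was −0.07 (SE 0.05) and not called, with all libraries below those of WT, and it was called under upper-quartile scaling (−0.12) and when GC content and length were offset (−0.13). In MLL2dTAG NPC it was 0.18 (SE 0.05), where the libraries overlapped and the call was lost under upper-quartile scaling, with library totals, and without NPC WT replicate 3 (0.14). MLL2dTAG was above dCD by 1.73 (SE 0.06) in NPC.

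P4ha2, a subunit of the enzyme that hydroxylates collagen prolines, was the member that rose most in MLL2dTAG NPC. The ESC libraries gave 64.3, 72.99 and 68.3 CPM in WT, 60.5, 55.96 and 58.98 in dCD, and 58.5, 54.7 and 59.4 in MLL2dTAG. The NPC libraries gave 111, 109 and 107 CPM in WT, 77.7, 81.7 and 86.95 in dCD, and 179, 190.2 and 180.2 in MLL2dTAG. The MLL2dTAG libraries of NPC were above all others and those of dCD below WT. The changes in NPC were −0.41 (SE 0.05) in dCD and 0.75 (SE 0.04) in MLL2dTAG. In ESC they were −0.23 (SE 0.05) and −0.26 (SE 0.05). Its relative P4ha1 went the other way in MLL2dTAG NPC (−0.45, SE 0.03). The sum of the 8 mesenchymal markers was also highest in that group among NPC (1061 to 1072 CPM). By gene they were split: against dCD NPC 3 were higher and 4 lower, and against WT 5 were higher and 3 lower. Their part in the value of P4ha2 was not tested.

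Egln3, the prolyl hydroxylase that is itself induced by hypoxia, had, as ESC, 126, 117 and 124 CPM in WT, 105, 109 and 109.8 in dCD, and 117, 119.6 and 119.5 in MLL2dTAG. In NPC it stood at 21.4, 22.2 and 17.9 CPM in WT, 18.9, 18.9 and 22.2 in dCD, and 9.75, 10.6 and 10.3 in MLL2dTAG. It fell with the stage, and in NPC the MLL2dTAG libraries lay below the overlapping WT and dCD libraries. The changes were −2.57 (SE 0.06) from ESC to NPC in WT, −1.004 (SE 0.07) in MLL2dTAG NPC and −0.04 (SE 0.07) in dCD NPC, the last not called.

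The remaining 5 of these targets were lower in MLL2dTAG NPC. Ddit4, an inhibitor of growth signalling, was at 161 ± 4.25 CPM in NPC WT and 45.4 ± 3.36 in MLL2dTAG (SD, n = 3), with −1.83 (SE 0.05). In dCD NPC its −0.14 (SE 0.05) lost its call without NPC WT replicate 2 (−0.12), dCD replicate 2 (−0.09) or dCD replicate 3 (−0.13). Ddit4 was also called lower in ESC of both edited lines. Its ESC levels were 295 ± 19.7 CPM in WT, 178 ± 8.87 in dCD and 148 ± 6.83 in MLL2dTAG (SD, n = 3). Car9, the carbonic anhydrase of hypoxic cells, was near the low end of the counts at 3.59 ± 0.279 CPM in NPC WT and 0.894 ± 0.00986 in MLL2dTAG, with −2.000 (SE 0.18). Bnip3, which drives removal of mitochondria, had −0.70 (SE 0.04) in dCD and −1.25 (SE 0.05) in MLL2dTAG NPC, with −0.66 (SE 0.04) and −0.79 (SE 0.04) in ESC. Vegfa, the growth factor of blood vessels, was higher in NPC than in ESC in WT (1.16, SE 0.04), as were P4ha1 (0.61, SE 0.03) and P4ha2 (0.66, SE 0.05). In NPC Vegfa was at −0.47 (SE 0.04) in dCD and −0.39 (SE 0.04) in MLL2dTAG.

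The balance within pairs of related genes was compared between the stages by an exact permutation test of the log2 ratio of counts, in which libraries were exchanged between ESC and NPC of the same genotype. The test had 8000 regroupings, a smallest p of 0.00025 and was two-sided, and 12 pairs were tested with Benjamini-Hochberg adjustment. A ratio of counts is not corrected for length, so that only its differences between groups are read. In 7 pairs the adjusted p was 0.00043, the smallest reached. Pfkl over Pfkp rose by 3.62 and Pfkm over Pfkp by 4.42 on the log2 scale from ESC to NPC, averaged over the genotypes. Pdk2 over Pdk1 rose by 2.86, Pdk3 over Pdk1 by 1.77, Eno2 over Eno1 by 1.83 and Pfkfb4 over Pfkfb3 by 1.17, while Slc2a3 over Slc2a1 fell by 1.02. These averages cover unequal values in WT, dCD and MLL2dTAG, which were −1.48, −1.41 and −0.18 for Slc2a3 over Slc2a1. The same 3 values were 2.26, 0.77 and 0.49 for Pfkfb4 over Pfkfb3, 0.72, 1.37 and 3.22 for Pdk3 over Pdk1, and 1.82, 2.28 and 4.49 for Pdk2 over Pdk1. They were 3.18, 3.42 and 4.25 for Pfkl over Pfkp and 3.85, 4.08 and 5.32 for Pfkm over Pfkp. Eno2 over Eno1 had 2.56 in dCD and 1.92 in MLL2dTAG, with the smallest value in WT.

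Hk2 over Hk1 had a difference of −0.45 (exact permutation, adjusted p 0.0071). By genotype it was 0.06 in WT, −0.88 in dCD and −0.54 in MLL2dTAG. The other 4 pairs did not pass. These were Aldoc over Aldoa (0.06, exact permutation, adjusted p 0.55), Ldhb over Ldha (0.20, 0.36), Slc16a3 over Slc16a1 (0.49, 0.057) and P4ha2 over P4ha1 (0.32, 0.1). In Ldhb over Ldha the stage difference was −0.69 in WT, 0.29 in dCD and 0.99 in MLL2dTAG, and in Slc16a3 over Slc16a1 it was 0.97, 1.07 and −0.56. These differences between genotypes were not tested as ratios.

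**Figure D5:**
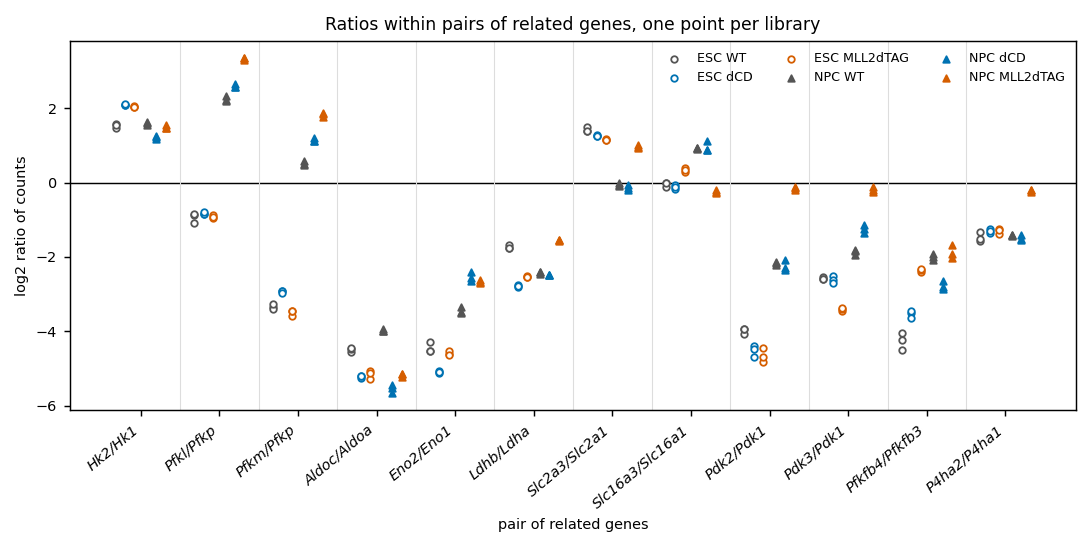
Log2 ratio of counts within 12 pairs of related genes, 1 point per library (3 per group), with open circles for ESC and filled triangles for NPC and the genotypes in grey (WT), blue (dCD) and orange (MLL2dTAG). The triangles lie well above the circles for Pfkl/Pfkp and Pfkm/Pfkp in every genotype, and the orange triangles of Pdk2/Pdk1 and Pdk3/Pdk1 lie near 0, above all other points of those pairs.

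The 2 edited lines were also compared directly. In ESC MLL2dTAG was above dCD for 11 members and below it for 16, where 23.4% of all genes were higher and 23.7% lower. The largest differences apart from Ankrd37 were in Ndrg1 (0.78, SE 0.05) and Pfkfb4 (0.71, SE 0.11). In NPC MLL2dTAG was above dCD for 6 members and below it for 27, where 31.6% of all genes were higher and 24.3% lower. The 6 were Ndrg1, P4ha2, Slc2a3 (0.95, SE 0.03), Pdk2 (0.90, SE 0.07), Slc16a1 (0.70, SE 0.04) and Ldhb (0.40, SE 0.04). The largest falls were in Ankrd37, Pdk4 (−2.42, SE 0.18) and Ddit4 (−1.69, SE 0.05).

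The genes that make up the hypoxia-inducible factors and their controls changed in both directions in NPC of the edited lines. Of 14 such genes, 5 were higher and 5 lower in dCD NPC, where 26.7% of all genes were higher and 26.8% lower. In MLL2dTAG NPC 7 were higher and 4 lower, where 33.3% of all genes were higher and 28.4% lower. Epas1 (HIF-2 alpha) had the largest change in MLL2dTAG NPC, 2.26 (SE 0.06), from 23.99 ± 0.305 to 115 ± 2.95 CPM (SD, n = 3), and was 0.83 (SE 0.05) in MLL2dTAG ESC. Hif1a, named after its values were seen, was 0.38 (SE 0.04) in dCD NPC and 0.61 (SE 0.04) in MLL2dTAG NPC. Hif3a, which can act as an inhibitor, was lower in all 4 comparisons with WT, with −0.72 (SE 0.06) and −1.37 (SE 0.06) in ESC of dCD and MLL2dTAG and −0.99 (SE 0.05) and −1.24 (SE 0.05) in NPC. From ESC to NPC in WT 10 of the 14 were higher and 3 lower (39.1% and 40.4% of all genes), with Arnt2 changed most (3.30, SE 0.05). These are mRNA levels, and the factors are controlled mainly as proteins.

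Of 34 gene symbols listed as further hypoxia targets outside the members, 33 were tested. More of them were lower than higher in NPC of both edited lines. In MLL2dTAG NPC 25 were lower and 4 higher, where 28.4% of all genes were lower and 33.3% higher. In dCD NPC 20 were lower and 8 higher, where 26.8% of all genes were lower and 26.7% higher. Car12, a surface carbonic anhydrase, had the largest change in MLL2dTAG NPC (−4.78, SE 0.13) and in MLL2dTAG ESC (−2.48, SE 0.12), with −1.63 (SE 0.09) in dCD NPC. Against that direction, Lox, which encodes a collagen cross-linking enzyme, was higher in dCD NPC (2.18, SE 0.10) and in MLL2dTAG NPC (1.41, SE 0.11). In ESC 17 of the 33 were lower and 6 higher in dCD, where 22.6% of all genes were lower and 25.7% higher. In MLL2dTAG ESC 19 were lower and 7 higher, where 28.2% of all genes were lower and 28.7% higher.

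Other genes of glucose use changed in both directions. Of 35 listed 30 were tested, and 15 were higher and 6 lower in MLL2dTAG NPC, where all genes were also more often higher (33.3%) than lower (28.4%). In dCD NPC 8 were higher and 7 lower, near the shares of all genes (26.7% and 26.8%). Fbp2, a fructose bisphosphatase, which runs the phosphofructokinase step backwards, had the largest rise, 5.30 (SE 0.22) in MLL2dTAG NPC, from 0.285 ± 0.044 to 11.4 ± 0.468 CPM (SD, n = 3), and 2.33 (SE 0.22) in MLL2dTAG ESC. Of 7 pentose phosphate genes tested, 2 were higher and 3 lower in MLL2dTAG NPC and 3 higher and 4 lower in dCD NPC, numbers too small to set against those shares. Tkt, the transketolase, was at −0.61 (SE 0.04) in dCD NPC and −0.47 (SE 0.04) in MLL2dTAG NPC.

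A list of 12 genes of the amino acid and unfolded protein stress response was mostly higher in NPC of both edited lines. In MLL2dTAG NPC 8 were higher, 7 of them at least 2-fold, and 1 was lower, where 33.3% of all genes were higher, and in dCD NPC 7 were higher and 1 lower, where 26.7% of all genes were higher. Chac1, an enzyme that breaks down glutathione, had the largest change in MLL2dTAG, 2.52 (SE 0.15) in NPC and 1.95 (SE 0.12) in ESC. Atf3, a transcription factor of the response, had the largest in dCD NPC (1.70, SE 0.12).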

How the data were processed

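The authors deposited a gene-by-library table of unnormalized read counts, and 18 of its columns were matched by name to the 6 groups of 3 libraries. Libraries were made with a stranded mRNA kit, per the labels' protocols. HTSeq is named, per the submitters' processing notes, and the aligner, genome build and strand setting are not given in the sources used here. A further 6 columns of the table could not be matched to 1 sample each, and a second table with 12 columns matched no label, so neither was used.

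After filterByExpr 20511 genes remained, and library sizes were adjusted by TMM (edgeR 4.0.16, R 4.3.3). A single quasi-likelihood model was fitted to all 18 libraries, with two-sided F tests and Benjamini-Hochberg adjustment over all genes, and an adjusted p under 0.05 was called. SE is the log2 change divided by the root of F, which is unreliable for changes near 0 at low counts. The code was tested on simulated data. CPM, lengths from GENCODE M21 and ratios within pairs (pseudocount 0.5 counts) were computed from the counts.

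The members and the gene lists were chosen with earlier results of these data known. In each comparison and each of 7 role classes, values by library are given for the called member with the largest change and a mean of at least 5 CPM. Alternatives were other scalings, DESeq2 1.42.0, no filter, halved counts, only the groups compared, offsets for GC content and length, a replicate block and leaving out each library.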

Additional observations from a re-analysis of the deposited data

Results flagged for a closer look

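For 59 of 72 tests the change of an edited line against WT differed between ESC and NPC, by the interaction term of the edgeR quasi-likelihood model at an adjusted p under 0.05. Each value here is the log2 change in NPC minus that in ESC, so a negative value means a deeper fall, or a smaller rise, in NPC. In dCD 26 of the 36 members were called, 7 higher and 19 lower, where 20% of all genes were higher and 22.9% lower. In MLL2dTAG 33 were called, 9 higher and 24 lower, where 26.4% of all genes were higher and 22.6% lower. The 2 interactions share their WT libraries.

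In dCD the carriers and hexokinases gave 0.75 for Hk1, −0.19 for Hk2, −1.02 for Slc2a1 and −0.95 for Slc2a3. The upper enzymes gave 0.34 for Gpi1, −0.34 for Pfkp, −0.90 for Aldoc and −0.38 for Tpi1. The lower enzymes gave −0.27 for Gapdh, −0.21 for Pgam1, −0.20 for Eno1, 1.36 for Eno2 and −0.24 for Pkm. The lactate genes gave −0.40 for Ldha, 0.57 for Ldhb, −0.64 for Slc16a1 and −0.54 for Slc16a3. Regulators of pyruvate and fructose phosphate use gave −0.69 for Pdk1, 1.14 for Pdk4 and 1.42 for Pfkfb3. The hypoxia targets gave −0.18 for Vegfa, −0.63 for Car9, −0.50 for Ankrd37, −0.17 for P4ha2, −0.71 for Ndrg1 and 0.59 for Ddit4. Eno2 and Hk1 were lower than WT in dCD ESC and higher in dCD NPC, as was Pfkfb3.

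In MLL2dTAG the carriers and hexokinases gave −0.47 for Hk2, −1.20 for Slc2a1 and 0.10 for Slc2a3. All 7 upper enzymes were called, with −0.32 for Gpi1, −0.60 for Pfkl, −0.20 for Pfkm, −1.67 for Pfkp, −0.43 for Aldoa, −0.97 for Aldoc and −0.70 for Tpi1. All 6 lower enzymes were called, with −0.28 for Gapdh, −0.44 for Pgk1, −0.35 for Pgam1, −0.53 for Eno1, 0.38 for Eno2 and −0.38 for Pkm. The lactate genes gave −0.82 for Ldha, 0.85 for Ldhb, 0.53 for Slc16a1 and −1.004 for Slc16a3. The pyruvate dehydrogenase kinases gave −2.30 for Pdk1, 0.37 for Pdk2, 0.19 for Pdk3 and −1.33 for Pdk4, and the Pfkfb genes gave 0.92 for Pfkfb3 and −0.85 for Pfkfb4. The hypoxia targets gave −0.46 for Bnip3, −0.97 for Egln3, −0.51 for Vegfa, −1.43 for Car9, 1.01 for P4ha2, 0.25 for Ndrg1 and −0.83 for Ddit4. Pdk1 had the largest value, being higher than WT in ESC and lower in NPC.

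Several of these calls depend on the processing. In dCD, Car9 lost its call under 7 alternatives (−0.63 to −0.56), which were no filter on low counts and leaving out ESC WT replicate 1 or 3, ESC dCD replicate 1 or 3, NPC WT replicate 3 or NPC dCD replicate 1. Ankrd37 lost it under 6 (−0.48 to −0.38), without ESC WT replicate 2, ESC dCD replicate 1 or 3, NPC WT replicate 1 or 3, or NPC dCD replicate 1. P4ha2 lost it under 8 (−0.18 to −0.14), without ESC WT replicate 1 or 3, ESC dCD replicate 1 or 3, NPC WT replicate 1 or 2, or NPC dCD replicate 1 or 2. In MLL2dTAG, the Slc2a3 value lost its call under 14 alternatives (0.00868 to 0.0994) and reversed under 1, so that no difference between the stages can be read from it. The 14 include upper-quartile scaling, library totals, DESeq2's size factors and its test, the replicate block, the groups compared alone and offsets for GC content and length, and leaving out ESC WT replicate 1, ESC MLL2dTAG replicate 2 or 3, NPC WT replicate 2 or 3, or NPC MLL2dTAG replicate 1 or 3. Pdk3 lost its call under 7 (0.09 to 0.17), which were upper-quartile scaling, library totals, no filter, offsets for GC content and length, and leaving out ESC MLL2dTAG replicate 1, NPC WT replicate 2 or NPC MLL2dTAG replicate 2. Ndrg1 lost it with library totals (0.16) and with no filter on low counts (0.15). The other 53 calls were kept under all alternatives run.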

How the results depend on the processing

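Of 5292 alternative values for single members, 5146 kept their direction and side of the threshold, 103 lost and 41 gained a call, and 2 reversed. The reversals were Tpi1 between the WT stages, 0.15 with offsets for GC content and length, and the MLL2dTAG interaction of Slc2a3, −0.00122 with no filter on low counts. The count of members higher in NPC WT than in ESC WT was 5 under upper-quartile scaling. The count higher in MLL2dTAG NPC was 1 under that scaling and with library totals, and 1 to 2 when 1 library was left out. The stage difference of Slc16a3 over Slc16a1 was 0.46 to 0.51 when 1 library was left out. It passed the threshold without ESC MLL2dTAG replicate 1 or 3 or NPC MLL2dTAG replicate 2 or 3. The other counts of members and pair ratios stayed within 1.5 times their value or on their side of the threshold. The causes were not tested.

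Libraries with the same replicate number did not deviate together: in 0 of 15 pairs of groups were all correlations over 0.1, with a range of −0.25 to 0.11 over 11805 genes. With a replicate block, 33 members were called between the WT stages, where 78.8% of all genes were called. Against WT it called 26 members in dCD ESC (47.6% of all genes) and 32 in MLL2dTAG ESC (56.1%). In NPC it called 32 in dCD (52.7% of all genes) and 33 in MLL2dTAG (61%). For MLL2dTAG against dCD it called 26 members in ESC (46.5% of all genes) and 33 in NPC (55.3%). For the interactions it called 26 in dCD (42.3% of all genes) and 32 in MLL2dTAG (48.3%). Low counts limit Car9, Pfkfb4, Pdk4 and Ankrd37, whose SE are the largest among the members.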

Other observations

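Eno1b, the near-identical copy of Eno1, had log2 changes of −0.86 (SE 0.06) from ESC to NPC in WT, −0.49 (SE 0.05) in MLL2dTAG ESC, −0.31 (SE 0.06) in dCD NPC and −1.02 (SE 0.06) in MLL2dTAG NPC, and −0.11 (SE 0.05) in dCD ESC, not called by edgeR. Rows with names of the kinds Gapdh-ps, Ldha-ps, Pgk1-ps, Pgk1-rs, Pgam1-ps and Aldoart (such as Gapdh-ps14 and Ldha-ps2) held at most 25 counts in a library. Copies of members under other names were not searched, and reads that members lost to copies were not measured.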
